A study of Mus musculus with 20 samples.

Results

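Ret, the receptor tyrosine kinase of the glial cell line-derived neurotrophic factor (GDNF) family, was followed with its 4 ligands (Gdnf, Nrtn, Artn and Pspn) and 4 coreceptors (Gfra1, Gfra2, Gfra3 and Gfra4) in salivary glands of C57BL/6J mice. These 9 genes of 18194 measured were taken by their symbols, and 16 of 45101 probe sets of the array carried one of these symbols and no other. The family was selected on measured values, since the age differences of Ret were known when it was taken up, and therefore the values of Ret are given as a description, with intervals that show their error only. The other 8 genes are tested. Where several probe sets stood for a gene, all were examined, and the one with the highest mean over the 20 arrays represented the gene.

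The glands, freed of lymph nodes, were taken when the mice were 4, 8, 12 or 16 weeks old, and RNA from 5 mice of every age was hybridized, each to an array of its own. All mice were of the healthy C57BL/6J strain with no treatment named in the labels, and they served the study as the comparator of a strain with Sjögren-like disease, and that second strain was not analyzed here. The question addressed was therefore which members of the family differed between neighboring ages in normal glands. Labels gave each array as a separate biological replicate.

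In the Ret pathway, a ligand dimer binds a coreceptor that is anchored to the cell surface by a lipid, and the complex brings 2 Ret molecules together, whose kinase domains then activate each other. GDNF, neurturin, artemin and persephin prefer GFRα1, GFRα2, GFRα3 and GFRα4, in that order. Ret is best known from the developing kidney and from enteric, sympathetic and parasympathetic neurons. In salivary glands, neurturin and Gfra2 are known for their part in parasympathetic innervation, and the receptors are carried by the neurons.

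The labels name the mice as male, yet all 20 arrays had a high signal for Xist, the RNA made from the inactive X chromosome of females (8.96 to 10.7 on the log2 scale, at or above the 96.3rd percentile of genes). In the same arrays the Y-linked gene Eif2s3y lay between 2.07 and 2.97, at or below the 4.47th percentile. Kdm5d and Uty, also Y-linked, lay higher, at percentiles of 12.4 to 31.2 and of 30.8 to 59.4. Since the high Xist and low Eif2s3y signals held at every age, they do not separate the ages compared. Of 12 measured markers of salivary acinar cells, 11 had a mean signal above the upper quartile of olfactory receptor genes (5.29), and their means ranged from 4.53 (Chrm3) to 13.6 (Prol1). No pair of arrays held identical values, and correlations between arrays ranged from 0.792 to 0.983. The number of arrays limits the precision of all values given.

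Ret signal alternated with age, being high at 4 and 12 weeks and low at 8 and 16 weeks. Its probe set 1436359_at had log2 signals of 6.69, 6.34, 6.86, 7.15 and 7.05 in the mice at 4 weeks of age. At 8 weeks the signals were 4.84, 5.36, 5.54, 5.47 and 5.21, so that all 5 mice lay below those at 4 weeks. The high level was seen again in older mice. At 12 weeks the signals were 6.99, 6.87, 6.49, 7.42 and 6.89. At 16 weeks they were 6.38, 5.25, 5.95, 5.78 and 6.00. Every mouse at 8 weeks thus lay below every mouse at 12 weeks, and every mouse at 16 weeks lay below every mouse at 12 weeks.

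**Figure D1:**
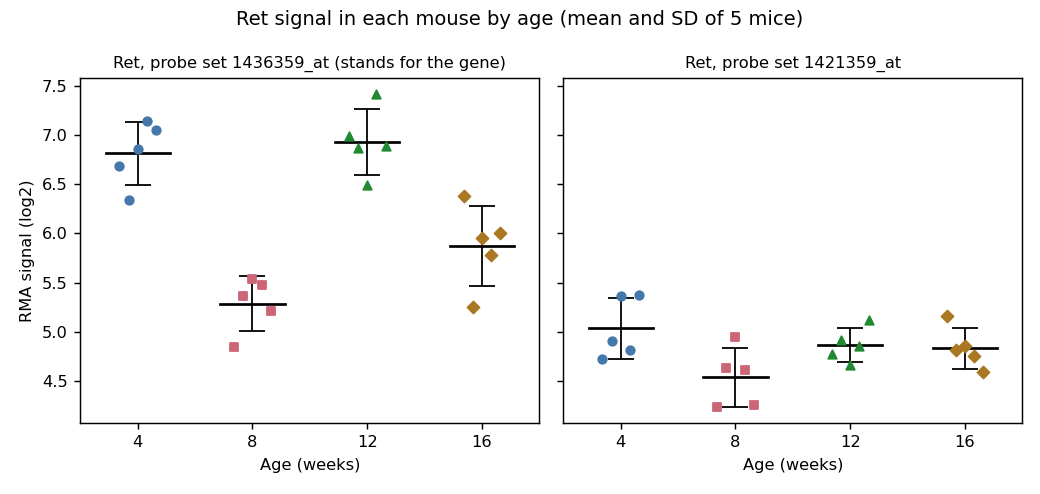
Log2 RMA signal of both Ret probe sets (y axis) against age in weeks (x axis). Each point is 1 mouse, horizontal lines are means and error bars are SD (n = 5). With the probe set that stands for the gene, mice at 8 weeks lie between 4.84 and 5.54 and mice at 12 weeks between 6.49 and 7.42, whereas with the other probe set the ages overlap.

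Mean signals at 4, 8, 12 and 16 weeks were 6.82 ± 0.321, 5.28 ± 0.279, 6.93 ± 0.333 and 5.87 ± 0.411 (SD, n = 5 each). The difference was -1.53 for 8 against 4 weeks (95% confidence interval -1.96 to -1.1), which is 0.346 of the signal at 4 weeks. The opposite difference followed at the next age. It was 1.64 for 12 against 8 weeks (1.21 to 2.07), a 3.12-fold higher signal. For 16 against 12 weeks it was -1.06 (-1.49 to -0.63), or 0.481 of the signal at 12 weeks. The 3 differences alternated in sign.

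In order of level, Ret was lowest at 8 weeks, followed by 16, 4 and 12 weeks. The highest neighbors in this order, 12 and 4 weeks, differed by 0.11, with an interval of -0.32 to 0.54, which is within the spread between mice. The lowest neighbors, 16 and 8 weeks, differed by 0.59 (0.16 to 1.02), although the mouse with the lowest value at 16 weeks (5.25) lay among those at 8 weeks. Signal at 16 weeks was 0.95 lower than at 4 weeks (difference -0.95, interval -1.38 to -0.52). Ret at 16 weeks therefore lay between its low and its high level.

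The place of Ret among the genes of its own array changed in the same way. Its percentile among the genes of the array lay between 74.2 and 83.4 (median 80.8) in the youngest mice and between 33.6 and 52.6 (median 46.7) at 8 weeks. It lay between 73.8 and 88.1 (median 82.2) at 12 weeks and between 46.3 and 69.8 (median 61.8) in the oldest mice. In whole glands, fewer cells of a type and less RNA per cell cannot be told apart.

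The second Ret probe set, 1421359_at, had a dimmer signal and smaller differences. It averaged 5.03 ± 0.309, 4.53 ± 0.297, 4.86 ± 0.171 and 4.83 ± 0.207 at 4, 8, 12 and 16 weeks (SD, n = 5 each). The difference was -0.5 for 8 against 4 weeks (standard error 0.16), 0.33 for 12 against 8 weeks (0.16) and -0.03 for 16 against 12 weeks (0.16). Both probe sets were thus lower at 8 than at 4 weeks and higher at 12 than at 8 weeks, but the lower level at 16 weeks was seen with only 1 of them. Mice overlapped between neighboring ages in all 3 comparisons of this probe set.

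Across all genes, the share that passed the limma test at an adjusted p of 0.05 was 7.39% (1345 genes) for 8 against 4 weeks, 0.0055% (1 gene) for 12 against 8 weeks and 0.192% (35 genes) for 16 against 12 weeks. For any difference among the 4 ages it was 2.6% (473 genes). Ret is the 1 of the 9 members among the genes counted in each of these, and the 1 gene counted for 12 against 8 weeks. The 5 values of an age did not overlap with those of the neighboring age for 5.75%, 5.34% and 2.65% of all genes in these 3 comparisons, and Ret belonged to them in each. Because Ret was chosen for this pattern, nothing is read from these counts.

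None of the other 8 members passed the test in any comparison. Of these 8, 1 had an unadjusted p under 0.05 for 8 against 4 weeks, and none had one for the later comparisons or for the test over the 4 ages. Over all genes, the share with such a p was 32.4%, 18.8% and 14.2% in the 3 comparisons and 25.9% for the 4 ages. When each of their 14 probe sets was fitted on its own, 0 passed, and unadjusted p was under 0.05 for 4, 2 and 1 of them in the 3 comparisons. The lowest adjusted p among the 8 genes was 0.106 for 8 against 4 weeks, 0.524 for 12 against 8 weeks and 0.754 for 16 against 12 weeks. Their median difference was 0.16, -0.1 and 0.1 in these comparisons, beside 0.05, -0.05 and -0.02 over all genes. In no comparison did the mice of neighboring ages fail to overlap for any of the 8.

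**Figure D2:**
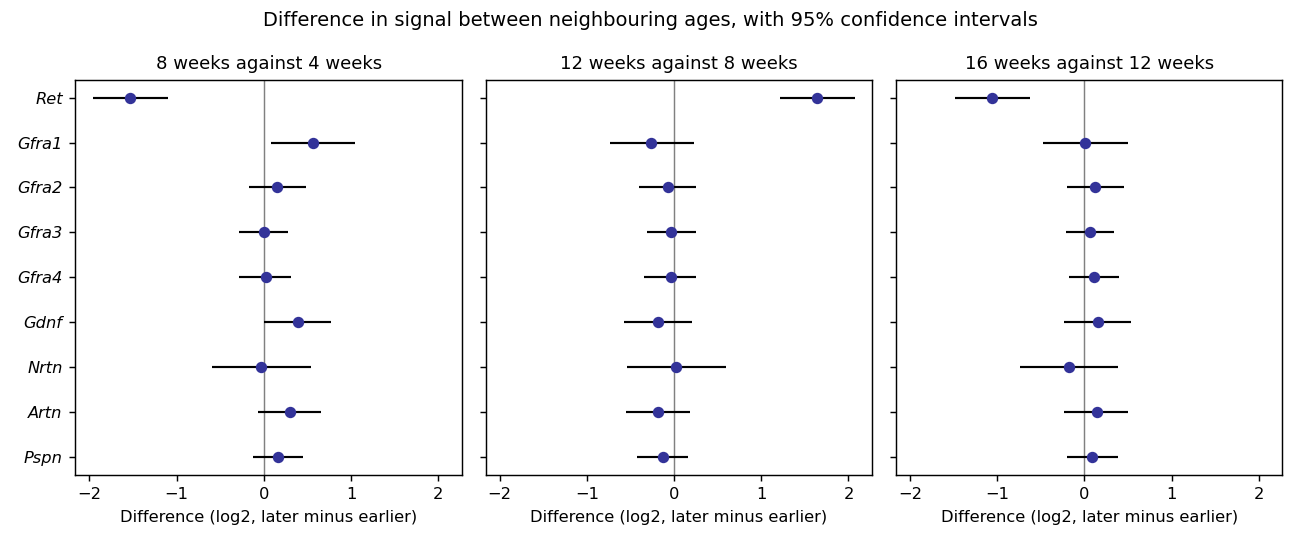
Difference in log2 signal between neighboring ages (x axis, later minus earlier) for the 9 members (y axis). Points are differences from the fit over 20 arrays and lines are 95% confidence intervals. Ret lies at -1.53, 1.64 and -1.06, and the other 8 members lie between -0.26 and 0.57.

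Of the ligands, Gdnf, which gives the family its name, was dim. Its signals were 3.79, 4.39, 4.77, 3.78 and 4.30 at 8 weeks, against 3.93, 3.63, 4.27, 3.67 and 3.60 at 4 weeks. Mice at 8 weeks thus spread over the range seen at 4 weeks and above it. The difference was 0.39 (interval 0 to 0.77, adjusted p = 0.158), and the means at 12 and 16 weeks were 4.01 ± 0.173 and 4.16 ± 0.269 (SD, n = 5 each).

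Artn encodes artemin, which acts on sympathetic and sensory neurons. It had signals of 4.28, 4.86, 5.26, 4.45 and 4.92 at 8 weeks, against 4.34, 4.46, 4.87, 4.41 and 4.21 at 4 weeks. The difference was 0.30 (interval -0.07 to 0.66, adjusted p = 0.241). The mice with the highest Artn at 8 weeks (mice 3, 5 and 2) were also the 3 with the highest Gdnf. Their arrays had the lowest SD of gene values at that age (1.44, 1.38 and 1.5, against 1.57 and 1.6), and its part in this was not tested.

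Nrtn, the gene of neurturin, was the brightest ligand probe set, but it varied more between mice than with age. Its signals at 8 weeks were 7.33, 7.54, 6.65, 6.35 and 5.98, against 6.51, 6.44, 6.71, 6.88 and 7.45 at 4 weeks. Means were 6.80 ± 0.404, 6.77 ± 0.657, 6.79 ± 0.329 and 6.61 ± 0.401 at 4, 8, 12 and 16 weeks (SD, n = 5 each). The intervals of its differences, -0.59 to 0.54 for 8 against 4 weeks and -0.74 to 0.39 for 16 against 12 weeks, leave room for changes of about the size of the largest ones measured among the 8.

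Pspn, the gene of persephin, lay between 4.15 and 4.98 in all 20 mice. Its means at 4, 8, 12 and 16 weeks were 4.45, 4.62, 4.49 and 4.58. The largest of its differences between neighboring ages was 0.16 (interval -0.12 to 0.45, adjusted p = 0.409), for 8 against 4 weeks.

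**Figure D3:**
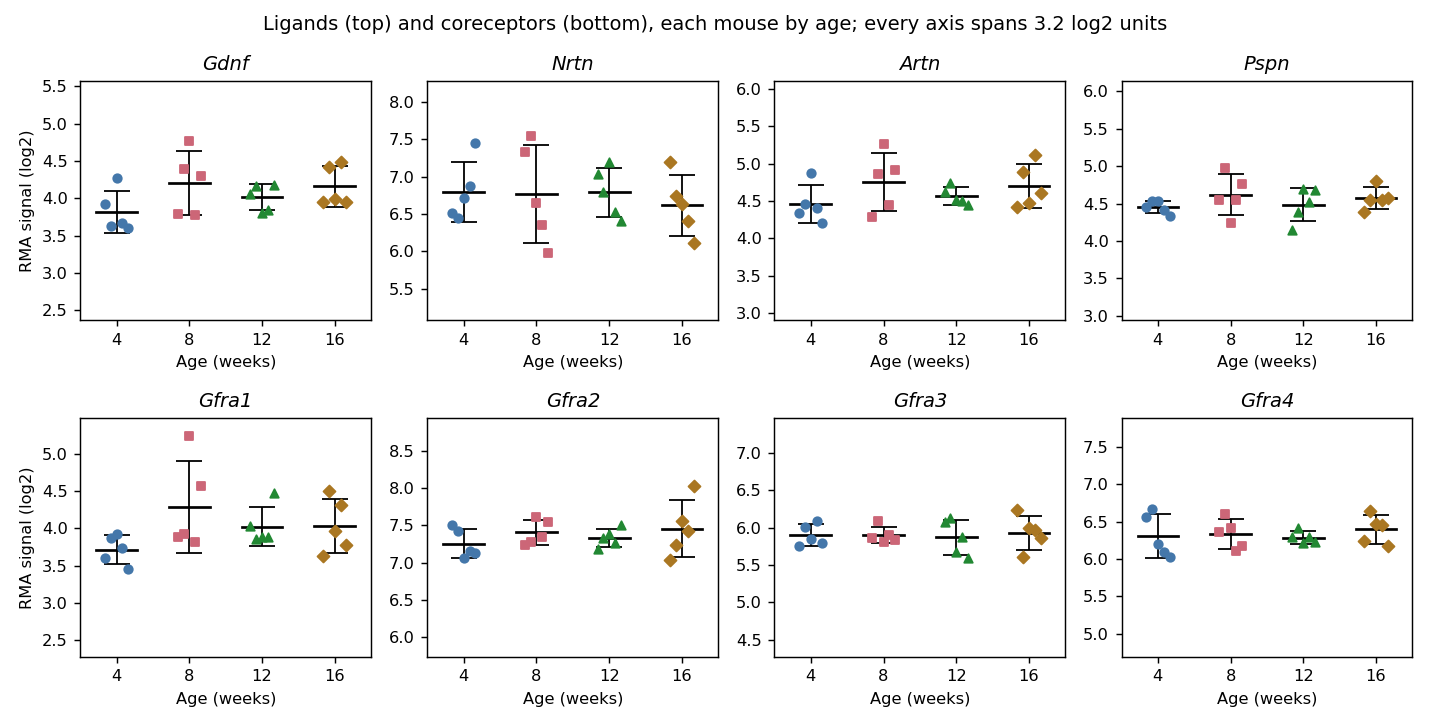
Log2 RMA signal (y axis) against age in weeks (x axis) for the 4 ligands in the top row and the 4 coreceptors in the bottom row. Each point is 1 mouse, horizontal lines are means and error bars are SD (n = 5), and all axes span the same number of log2 units. Ages overlap in every panel, and 1 mouse at 8 weeks stands high for Gfra1 at 5.24.

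Among the coreceptors, Gfra1, which encodes the preferred partner of GDNF, had the largest difference of the 8. Its signals were 3.88, 3.92, 5.24, 3.81 and 4.56 at 8 weeks, against 3.60, 3.87, 3.92, 3.73 and 3.46 at 4 weeks. Most of the difference came from mice 3 and 5, whereas the other 3 mice at 8 weeks lay between 3.81 and 3.92. Arrays of mice 3 and 5 had the lowest SD of gene values at 8 weeks (1.44 and 1.38). The difference was 0.57 (standard error 0.23, interval 0.08 to 1.05), with an unadjusted p of 0.0242 and an adjusted p of 0.106 by limma. The other 2 Gfra1 probe sets were dimmer, and their differences were 0.23 (1439015_at) and 0.31 (1421973_at).

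Gfra2, whose product binds neurturin, had the highest signal of the family, with means of 7.25 ± 0.199, 7.41 ± 0.164, 7.33 ± 0.123 and 7.46 ± 0.379 at 4, 8, 12 and 16 weeks (SD, n = 5 each). At 16 weeks 1 mouse reached 8.03, and the other 4 lay between 7.03 and 7.56. Differences between neighboring ages were 0.15 (adjusted p = 0.499), -0.07 (0.801) and 0.12 (0.754). Its 5 probe sets did not move together. Between 4 and 8 weeks, 4 of them had positive differences, of up to 0.4 (1423007_a_at), while 1425578_a_at had a difference of -0.35, and none passed the test. The mean signal of 1425578_a_at over the 20 arrays was 3.15, below the lower quartile of olfactory receptor genes (4.31).

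Gfra3 and Gfra4, whose products bind artemin and persephin, had the smallest differences among the coreceptors. Gfra3 averaged 5.90, 5.90, 5.87 and 5.93 at 4, 8, 12 and 16 weeks. Its differences lay between -0.03 and 0.06, with intervals that reached no farther than -0.31 and 0.34. Gfra4 averaged 6.31, 6.33, 6.29 and 6.39, with differences between -0.04 and 0.11 and intervals that reached -0.34 and 0.40. For both genes, as for the other members tested, the intervals of all 3 comparisons lie apart from the differences of Ret. Because Ret was chosen for its differences, nothing is read from this.

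The dim members were close to the level of genes that salivary glands are not known to use. The middle 50 percent of 39 olfactory receptor genes lay between 4.31 and 5.29 (median 4.87) in mean signal over the 20 arrays. Gfra1 (4.01), Gdnf (4.05), Pspn (4.53) and Artn (4.62) lay below that median, whereas Gfra3 (5.90), Ret (6.23), Gfra4 (6.33), Nrtn (6.74) and Gfra2 (7.36) lay above the upper quartile. This holds for the probe set of highest mean of each gene. The second Ret probe set averaged 4.82, below the median, and the other Gfra2 probe sets averaged 5.32, 3.79, 3.2 and 3.15. Probe sets differ in how well they bind, and calls of presence were not used here, so this places the signals and does not order the genes by transcript level. For the 4 dim genes, and with the dimmer probe sets of Ret and Gfra2, a change in transcript could be understated.

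The arrays themselves differed with age in the spread of signal, taken as the SD of the values of all genes on an array. Its averages at 4, 8, 12 and 16 weeks were 1.68 ± 0.145, 1.5 ± 0.0901, 1.64 ± 0.0273 and 1.51 ± 0.139 (SD, n = 5 each), and it was high and low at the same ages as Ret. Over the 20 arrays, as deposited, Ret and the spread had a Pearson r of 0.69, and part of this relation was seen within ages. After each value was centred on its age, r was 0.47 and Spearman's rho was 0.57. Without the 2 arrays whose spread lay farthest from the median, mouse 5 at 4 weeks and mouse 5 at 8 weeks, r was 0.46. The size of the relation differed between ages. Within ages, r was 0.77, -0.37, 0.36 and 0.73 at 4, 8, 12 and 16 weeks, each over 5 mice.

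**Figure D4:**
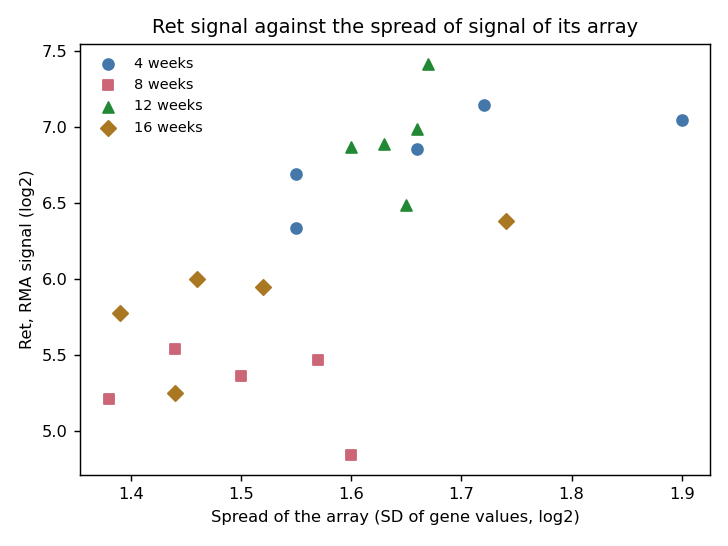
Log2 RMA signal of Ret (y axis) against the spread of signal of its array, the SD of all gene values (x axis, log2 units), with 1 point per mouse and a color and symbol per age. Arrays at 12 weeks lie between 1.6 and 1.67 on the x axis and those at 8 weeks between 1.38 and 1.6, and over all 20 points Pearson's r is 0.69.

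Spread ranged from 1.55 to 1.9 at 4 weeks, 1.38 to 1.6 at 8 weeks, 1.6 to 1.67 at 12 weeks and 1.39 to 1.74 at 16 weeks, so that its ranges met or overlapped between neighboring ages. When the spread entered the fit beside age, the differences of Ret were -1.27 for 8 against 4 weeks, 1.44 for 12 against 8 weeks and -0.87 for 16 against 12 weeks. Each was smaller in size than without the spread and had the same sign.

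Other members also followed the spread within ages, in both directions. With centred values over 20 arrays, r was 0.66 for Nrtn (permutation p = 0.00375, adjusted 0.0317; rho 0.55, permutation p = 0.0244, adjusted 0.0366), and 0.49 without the 2 outermost arrays. It was -0.56 for Gfra1 (permutation p = 0.00704, adjusted 0.0317; rho -0.63, p = 0.00499, adjusted 0.0361) and -0.53 without these arrays. For Artn it was -0.61 (permutation p = 0.0132, adjusted 0.0396; rho -0.65, p = 0.00802, adjusted 0.0361) and -0.58 without them. For Gfra2, Gfra4 and Gdnf r lay between -0.58 and -0.53, and its adjusted p missed the threshold (permutation, 0.0684 each). By rank these genes passed it. Their rho was -0.58 for Gfra2 (permutation, adjusted p = 0.0366), -0.56 for Gfra4 (0.0494) and -0.6 for Gdnf (0.0366). Gfra3 (r 0.25, permutation, adjusted p = 0.313) and Pspn (-0.23, 0.299) passed by neither measure. With the spread in the fit, the difference of Gfra2 between 8 and 4 weeks was -0.07 and that of Nrtn was 0.47, both opposite in sign to those above. What part the spread has in these values was not tested.

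Over the 20 arrays, the genes most like Ret were Exosc1 (r = 0.864), Nr1d2 (0.86), Sf3b1 (0.859), Ralgapa2 (0.857), Tra2b (0.854) and Slc38a2 (0.852). Nr1d2 encodes a circadian nuclear receptor, Sf3b1 and Tra2b encode splicing factors, Exosc1 encodes a subunit of the RNA exosome and Slc38a2 encodes an amino acid transporter. Nr1d2 averaged 8.66, 7.06, 8.72 and 7.25 at 4, 8, 12 and 16 weeks, with the same alternation as Ret. Sf3b1 averaged 8.72, 7.89, 8.97 and 7.98 at these ages, and Exosc1, Ralgapa2, Tra2b and Slc38a2 also alternated in this way. Since all were picked for their likeness to Ret, nothing is read from this alternation. In all, 51 genes had an r above 0.8, and the arrays they share differ in spread as given above. After centring on age, 3 genes had an r above 0.8, and Cul2 (0.829), Fst (0.829), Nup50 (0.809), Setdb1 (0.799), Slc25a40 (0.797) and Tecpr2 (0.783) led. Fst encodes follistatin, which binds activins, and Cul2 encodes a scaffold of ubiquitin ligases. These correlations describe the arrays and carry no test. For the other 8 members, r with Ret lay between -0.42 (Gfra1) and 0.12 (Gfra3) over the 20 arrays as deposited, and between -0.52 (Gfra4) and 0.46 (Gfra3) after centring on age.

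Other genes of the pathway were taken as whole lists, from knowledge of the pathway but with earlier results of these data known. Of 6 measured genes for other receptors of GDNF family ligands and related proteins, 0 passed in any of the 3 comparisons by limma. Among these 6, unadjusted p was under 0.05 for 1, 1 and 0, beside 32.4%, 18.8% and 14.2% of all genes. This list holds Ncam1, an alternative GDNF receptor, whose difference was 0.23 for 8 against 4 weeks (adjusted p = 0.287). It also holds Sorl1, a sorting receptor that takes up GDNF with its coreceptor, with differences of -0.84 (adjusted p = 0.0736), 0.79 (0.19) and 0.19 (0.806).

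Of 28 measured adaptors and signal transducers of Ret, 1 rose and 1 fell between 4 and 8 weeks, with a median difference of -0.03, beside 0.05 over all genes. Gab2, a docking protein that recruits phosphoinositide 3-kinase, had a lowest, median and highest signal of 6.93, 7.30 and 7.63 at 8 weeks, against 6.20, 6.75 and 6.80 at 4 weeks. The groups did not overlap, and the difference was 0.64 (standard error 0.16, adjusted p = 0.0309). Of its 3 probe sets, 2 had positive differences and 1 had a difference of -0.39. Sos2, an exchange factor that activates Ras, had 4.57, 5.17 and 5.98 at 8 weeks, against 5.70, 6.07 and 6.71 at 4 weeks. The difference was -0.90 (standard error 0.27, adjusted p = 0.0479), and the highest mouse at 8 weeks overlapped with the lowest at 4 weeks. The share passing, 2 of 28, is near the 7.39% of all genes.

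Of 15 measured targets and feedback genes, 2 fell between 4 and 8 weeks and 0 rose, beside 7.39% of all genes called (4.13% lower), with a median difference of -0.08. Dusp4, a phosphatase that dampens the ERK kinases downstream of Ret and of many other receptors, had a lowest, median and highest signal of 3.36, 3.84 and 3.95 at 8 weeks, against 4.76, 5.06 and 6.40 at 4 weeks. The groups did not overlap, and it fell by 1.6 on the log2 scale (standard error 0.24, adjusted p = 0.00445). Unlike Ret, Dusp4 stayed low at the later ages, with means of 3.70 at 12 weeks and 3.52 at 16 weeks. These and its mean at 8 weeks (3.72) lay below the lower quartile of olfactory receptor genes (4.31), so later changes could be understated. Spry2, an inhibitor of receptor tyrosine kinase signaling, had 5.92, 6.22 and 6.70 at 8 weeks, against 6.75, 6.87 and 7.39 at 4 weeks, without overlap (difference -0.65, standard error 0.19, adjusted p = 0.0449). Its second probe set had a difference of 0.1.

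Of 13 measured transcription factors known to act on Ret in other tissues, 1 rose and 1 fell between 4 and 8 weeks, beside the same 7.39% of all genes, with a median difference of 0.19. Foxa1, which opens chromatin in epithelia and is known as a regulator of RET in human breast cancer cells, had a lowest, median and highest signal of 6.60, 6.97 and 7.96 at 8 weeks, against 7.70, 8.52 and 9.29 at 4 weeks, with overlap of the groups. Its difference was -1.4 (standard error 0.32, adjusted p = 0.0257), with means of 8.00 at 12 weeks and 7.09 at 16 weeks. Rarb, a retinoic acid receptor, had 5.04, 5.62 and 5.81 at 8 weeks, against 4.84, 5.07 and 5.17 at 4 weeks, again with overlap (difference 0.54, standard error 0.15, adjusted p = 0.0395). Neither gene passed between the later ages.

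For 12 against 8 weeks and 16 against 12 weeks, no gene of these 4 pathway lists passed by limma. Unadjusted p was under 0.05 for 5 and 3 of the 28 adaptors, for 4 and 3 of the 15 targets and feedback genes and for 2 and 1 of the 13 transcription factors. Shares over all genes for this are those given beside the 8 members.

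**Figure D5:**
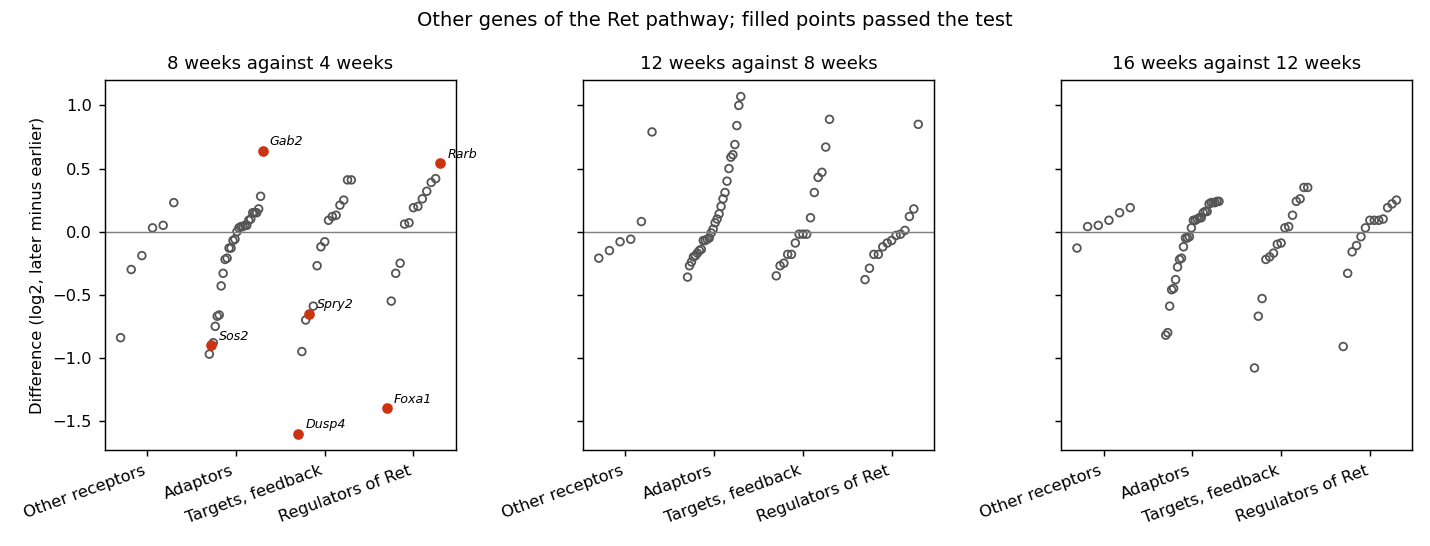
Difference in log2 signal between neighboring ages (y axis, later minus earlier) for the 4 lists of other pathway genes (x axis, genes of a list in order of difference). Filled points with names are the 6 genes that passed the test, all for 8 against 4 weeks, from Dusp4 at -1.6 to Gab2 at 0.64.

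Markers of the cell types that could carry these genes were examined beside Ret. Of 22 measured markers of autonomic neurons, 0 passed in any comparison by limma, with unadjusted p under 0.05 for 7, 5 and 1 of them. Over all genes, 7.39%, 0.0055% and 0.192% passed, and 32.4%, 18.8% and 14.2% had such an unadjusted p. The summed linear signal of the neuron markers ranged from 776 to 905 at 8 weeks against 728 to 788 at 4 weeks. It ranged from 704 to 805 at 12 weeks and from 692 to 853 at 16 weeks. Differences for 8 against 4 weeks ranged from -0.67 (Gal) to 0.48 (Elavl4), with 6 of the 22 negative, and the list medians in the 3 comparisons were 0.13, -0.15 and 0.03. In mean signal over the 20 arrays, 9 of the markers lay below the middle range of the olfactory receptors, 7 within it and 6 above it. The enzymes that define cholinergic and noradrenergic neurons were among the last 2 of these groups. Chat averaged 4.89 ± 0.184 at 8 weeks and 4.45 ± 0.257 at 4 weeks, Th averaged 5.22 ± 0.319 and 5.16 ± 0.292, and Dbh averaged 6.65 ± 0.325 and 6.32 ± 0.229 at these ages (SD, n = 5 each).

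Of 12 markers of Schwann cells and glia, 0 passed, with unadjusted p under 0.05 for 3, 3 and 2. The shares over all genes are those given beside the neuron markers. The summed signal of these 12 markers was 965 to 1210 at 8 weeks, against 1190 to 1480 at 4 weeks. It was 1010 to 1350 at 12 weeks and 955 to 1600 at 16 weeks, and the ranges of neighboring ages overlapped. Sox10, which is also used by acinar cells, averaged 9.26, 8.93, 9.11 and 8.78 at 4, 8, 12 and 16 weeks.

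The median difference of 12 acinar markers was -0.88, 0.64 and -0.56 in the 3 comparisons, and that of 14 duct markers was -0.27, 0.65 and -0.74. It was -0.04, 0.12 and -0.17 for the Schwann cell and glial markers, -0.37, 0.07 and -0.25 for 8 myoepithelial markers and -0.43, 0.12 and -0.02 for 12 fibroblast and endothelial markers. In all 5 lists the signs were thus those of Ret, beside medians of 0.05, -0.05 and -0.02 over all genes. The last fibroblast and endothelial median equals that over all genes. For 8 against 4 weeks, 6 of the glial markers had positive and 6 had negative differences. In autonomic neuron (0.13, -0.15 and 0.03), muscle (0.28, -0.2 and 0.08) and leukocyte markers (0.29, -0.22 and 0.11) the signs were opposite. In fat cell markers the medians were -0.24, -0.06 and 0.18. The lists also differed in level. Mean signal lay above the upper quartile of olfactory receptors for 11 acinar, 11 duct, 8 myoepithelial, 9 fibroblast and endothelial and 7 glial markers. It did so for 6 of 22 neuron, 3 of 11 muscle, 7 of 13 leukocyte and 5 of 9 fat cell markers. The spread of signal of the arrays was low at 8 and 16 weeks, and its part in these medians was not tested. Beside the calls that follow, 4.13% of all genes were called lower and 3.26% higher for 8 against 4 weeks. Of the acinar markers 2 fell between 4 and 8 weeks, Ano1 (-1.31, adjusted p = 0.0308) and Lpo (-1.61, adjusted p = 0.0449), and of the duct markers 1 rose, Klk1b5 (1.76, adjusted p = 0.0262). The summed acinar signal had ranges of 26600 to 48300, 26200 to 36400, 31900 to 40500 and 11400 to 41500 at 4, 8, 12 and 16 weeks. The summed duct signal had ranges of 8780 to 14800, 3600 to 17700, 10500 to 21300 and 5560 to 17100. Ranges of both sums overlapped between all ages.

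Of the other cell types, 3 of 12 fibroblast and endothelial markers fell between 4 and 8 weeks (Col3a1, Col1a2 and Lum), and their summed signal was 845 to 1480 at 8 weeks, against 1770 to 2830 at 4 weeks, so that these mice did not overlap. It was 1110 to 1990 at 12 weeks and 771 to 2430 at 16 weeks. Of 8 myoepithelial markers 1 fell (Myh11), and 1 rose of 11 muscle markers (Myf6), of 9 fat cell markers (Retn) and of 13 leukocyte markers (Cd3e). Summed signals of these lists at 8 and at 4 weeks were 1330 to 2670 and 1670 to 3720 for myoepithelial cells, 322 to 452 and 249 to 352 for muscle, 421 to 781 and 415 to 1530 for fat cells, and 1360 to 1650 and 1110 to 1600 for leukocytes. None of the markers passed between the later ages. What part the makeup of the tissue has in the values of Ret was not tested.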

How the data were processed

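Values were log2 signals, which the authors deposited after robust multi-array averaging (RMA, named in the submitters' processing notes) of 20 Affymetrix mouse arrays, hybridized with labeled RNA of 1 mouse each. Which arrays were normalized together is not given in the sources used here, and no further normalization was made. RMA gives relative signals and usually brings arrays to a like distribution, whereas here the SD of gene values ranged from 1.38 to 1.9 between arrays, which can widen or narrow log2 differences. The annotation gave a single gene symbol to 34958 of 45101 probe sets and several to 932, and it did not list 9211. Of those with a single symbol, 34754 matched the reference genes. For each of 18194 genes the probe set of highest mean was used.

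Neighboring ages, and all 4 ages in an F test, were tested by limma (version 3.58.1, under R 4.3.3) with age as the sole factor and the 20 arrays fitted together. A gene passed at a p-value under 0.05 after Benjamini-Hochberg adjustment over the whole gene table, and intervals cover 95%. Analysis steps were tested on simulated data. Relations with the spread of signal used 100000 permutations within ages and were adjusted over 9 genes. Members and lists were chosen with earlier results of these data known. Named genes were all members, list genes past the threshold (at most 4 per list by size of difference) and the 6 most like Ret. Mice were not paired by replicate number. The alternatives are given in the closing section.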

Additional observations from a re-analysis of the deposited data

Results flagged for a closer look

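Of 64 groups of 5 mice (16 probe sets at 4 ages), 2 held a value far from the others, and chance alone flags about 1 in 20 such groups. Probe set 1450440_at of Gfra1 had 4.47 in mouse 5 at 12 weeks, against 3.86 to 4.03 in the other mice of that age. Probe set 1459847_x_at of Gfra2 had 3.15 in mouse 2 at 16 weeks, against 3.95 to 4.12 in the others. The value of 5.24 for Gfra1 in mouse 3 at 8 weeks, given above, was not set apart by the same measure. None of the Ret values was.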

How the results depend on the processing

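Ret kept its direction in all 3 comparisons under every alternative and with every mouse left out. Nothing is read from this or from the counts below, because Ret was chosen for this pattern and these fits reuse the same arrays. With each probe set on its own, Ret was followed by the probe set that stands for the gene. The other Ret probe set had a difference of -0.03 for 16 against 12 weeks. As a count, 1 of 9 members was past the threshold. The count was 0 for 12 against 8 weeks with the mean of the Ret probe sets (difference 0.99). For 16 against 12 weeks the count was 0 with each probe set on its own, with the mean of probe sets (-0.54), with a replicate block and when the spread of signal was a covariate (-0.87). Leaving out 1 mouse gave 0 to 1 for 16 against 12 weeks. It was 0 without mouse 3 at 4 weeks, mice 1, 2, 4 or 5 at 12 weeks, or mice 2, 3, 4 or 5 at 16 weeks. Over all 20 such fits the difference was -1.18 to -0.9. The cause was not tested. Replicate numbers share no stated origin, and same-numbered mice deviated together (r over 0.1) in 5 of 15 pairs. The other 8 members never passed, in 252 values under alternatives (lowest adjusted p 0.0741) and 480 with a mouse left out (0.0583).

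Some of their differences, none past the threshold, changed sign. With the spread as a covariate, they were for 8 against 4 weeks -0.07 (Gfra2), -0.17 (Gfra4) and 0.47 (Nrtn), for 12 against 8 weeks 0.02 (Gfra1), 0.11 (Gfra2), 0.11 (Gfra4), 0.01 (Gdnf), 0.03 (Artn) and -0.37 (Nrtn), and for 16 against 12 weeks -0.24 (Gfra1), -0.04 (Gfra2), -0.03 (Gfra4), -0.04 (Gdnf), -0.06 (Artn) and 0.18 (Nrtn). With cyclic loess and with quantile normalization, Nrtn had 0.14 and 0.19, then -0.14 and -0.14, and with loess 0.01 for 16 against 12 weeks. There Gfra1 had -0.04 and -0.02. With array weights, Gfra4 had -0.01 and Nrtn 0.05 for 8 against 4 weeks. With a mouse left out, Gfra4 ranged from -0.05 to 0.11 and Nrtn from -0.22 to 0.17 for 8 against 4 weeks, Gfra3 from -0.1 to 0.04, Gfra4 from -0.1 to 0.02 and Nrtn from -0.18 to 0.21 for 12 against 8 weeks, and Gfra1 from -0.11 to 0.12, Gfra2 from -0.02 to 0.23 and Gfra3 from -0.01 to 0.15 for 16 against 12 weeks.

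Of the pathway genes, Dusp4 passed in 9 of 10 alternatives and with each of 20 mice left out. Out of 11 alternatives and 20 mice, Foxa1 passed in 8 and 16, Gab2 in 6 and 15, Rarb in 5 and 15, Sos2 in 7 and 5 and Spry2 in 4 and 6. All 6 kept their direction.

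The number of all genes called moved widely. For 8 against 4 weeks (1345) it was 3355 for probe sets on their own, 245 with the replicate block, 2 with only the arrays of both ages, 210 with array weights, 16 with the spread as a covariate and 14 to 2694 with a mouse left out (lowest without mouse 5 at 4 weeks). For 12 against 8 weeks (1) it was 0 with the mean of probe sets, 2 with median centring, 7 with loess, 15 with quantile normalization, 274 with only both ages, 2 with limma-trend, 27 with weights, 2 with the spread and 1 to 225 with a mouse left out. For 16 against 12 weeks (35) it was 18, 53, 15 and 111 with the mean of probe sets, quantile normalization, the replicate block and only both ages, 23 with limma-trend, 1164 with weights and 9 to 1035 with a mouse left out. For the 4 ages (473) it was 1193 for probe sets, 86 with the block, 1486 with weights, 122 with the spread and 85 to 2611 with a mouse left out.

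With 5 mice an age, the intervals of the other 8 members for 8 against 4 weeks ended between 0.28 and 1.05 on the higher side, so a rise within these bounds could have been missed. For the 4 members near the level of olfactory receptors, the signal limits this further.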
